A study of Homo sapiens with 6 samples.

Results

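Nuclear speckles and paraspeckles are bodies without a membrane that lie between the chromosomes. Speckles store and modify pre-mRNA splicing factors, including the SR proteins to which SRSF11 belongs, and they are built on the large proteins SON and SRRM2, with the long noncoding RNA MALAT1 gathered in them. Paraspeckles form around the long noncoding RNA NEAT1, which is bound by the related proteins NONO, SFPQ and PSPC1, and they can hold RNAs and proteins back in the nucleus. The 9 genes described here are the architectural RNAs and proteins of these bodies and were taken from the gene count table by name, with 9 found of 9 looked for among 58735 listed genes. They are the speckle genes MALAT1, SON, SRRM1 and SRRM2 and the paraspeckle genes NEAT1, NONO, SFPQ, PSPC1 and TARDBP.

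The libraries came from LoVo, a cell line of human colorectal cancer, after transfection of a negative control siRNA (si-NC, 3 libraries) or of siRNA that targets SRSF11 (si-SRSF11, 3 libraries). The labels and the methods of the study do not say which of its SRSF11 siRNAs was sequenced, so the si-SRSF11 group has no check by an siRNA of another sequence here, and the time between transfection and harvest was not given in the sources used here. The study speaks of 3 pairs of independent control and knockdown RNA samples and does not say which libraries form a pair. Where samples share a culture the p-values measure only the spread between these samples. The deposited values were reads counted per gene, and a si-NC library held 14369525 to 15514404 of them and a si-SRSF11 library 15688702 to 16685719. Levels are given as counts per 1000000 counts (CPM) after scaling by TMM, a method that sets a common library size from most genes. Only the levels of cell type markers were not scaled by TMM. A gene was called higher or lower where edgeR's quasi-likelihood test over 15801 genes gave a Benjamini-Hochberg adjusted p under 0.05.

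The libraries differed in many genes besides these 9. SRSF11, the targeted gene, was lower in each library labelled si-SRSF11, with 1271, 1281 and 1363 counts in si-NC and 789, 789 and 807 in si-SRSF11, or 57.2% of its control level (log2 fold change -0.81, SE 0.054, edgeR adjusted p = 6.1e-10). Of the 15801 tested genes, 24.6% were called, 13.2% higher and 11.4% lower, 1.09% were called with an absolute log2 fold change over 1, and the groups did not overlap in 38.8%. The split was 2081 higher and 1805 lower with TMM, and 1585 higher and 2289 lower with library size alone. The share of counts on mitochondrial genes was 7.003% to 7.25% in si-NC and 8.29% to 8.51% in si-SRSF11, and its part in the results below was not tested. All 9 colon epithelial markers had counts, with a summed level of 5062 to 5313 CPM in si-NC and 5054 to 5333 CPM in si-SRSF11. Most of the sum was KRT8 at 3071 to 3397 CPM and KRT18 at 1077 to 1236 CPM over the 6 libraries. VIL1, EPCAM and CDH1 stood at 215 to 282 CPM, CDX2 at 63.9 to 95.7 and TFF3 at 7.01 to 10.1. KRT20 and CEACAM5 were low, at 0.418 to 1.27 and 0.637 to 1.39 CPM. The summed level of 5 leukocyte, 5 fibroblast and 4 endothelial markers reached at most 4.43, 28.8 and 2.61 CPM, respectively, in any library. The fibroblast sum was 19.8 to 23.4 CPM in si-NC and 24.3 to 28.8 CPM in si-SRSF11, with PDGFRB at 7.35 to 10.3 and 13.4 to 15.7 CPM, COL1A1 at 12.4 to 13.2 and 10.7 to 13.1 CPM, DCN and LUM at 0 and COL1A2 at most at 0.139 CPM.

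MALAT1 and NEAT1 lie near each other on chromosome 11, with 52147 bases between the end of NEAT1 and the start of MALAT1 (GRCh38). MALAT1 spans chr11:65497688-65506516 and NEAT1 spans chr11:65422774-65445540, both on the plus strand and both annotated as long intergenic noncoding RNAs. The mature ends of MALAT1 and of the long NEAT1 transcript are not made by ordinary polyadenylation. RNase P cuts in front of a tRNA-like RNA, and U-rich motifs then pair with a genome-encoded A-rich tract in a triple helix. The short NEAT1 transcripts are polyadenylated. These ends are shown because the libraries were made from RNA captured on poly-T beads. The sequences are from GENCODE 29 transcripts, written with T for U, and the capitals mark the A-rich tract or the U-rich motif.
MALAT1 A-rich tract, chr11:65506087-65506116: ttttctagcttAAAAAAAAAAAAAGCAAAA
NEAT1 A-rich tract, chr11:65445511-65445540: ctgtgaaagagtgagcaggAAAAAGCAAAA
MALAT1 U-rich motif, chr11:65506063-65506092: ttctcaggTTTTGCTTTTTggcctttttct
NEAT1 U-rich motif, chr11:65445482-65445511: cactcaggTTTTGCTTTTcaccttcccatc
The NEAT1 tract stood at the annotated end of the long transcript (22743 nt, 1 exon), and the MALAT1 tract stood 353 nt before the annotated end of its longest transcript (8708 nt, 1 exon). The letters TTTGCTTTT and AAAGCAAAA, searched on the transcript strand, both occurred in the last 500 nt of 4 of 15794 tested genes' longest transcripts (0.0253%). These were MALAT1, NEAT1, CHN1 and KPNA6. The letters are those of the MALAT1 and NEAT1 ends shown above, so the matches of these genes were fixed in advance. Singly, TTTGCTTTT was found in the last 500 nt of 269 of the 15794 transcripts and AAAGCAAAA in that of 205. Whether both occur together more often than such single counts give was not tested.

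The NEAT1 transcript also carries long TG repeats, and TARDBP encodes TDP-43, an RNA-binding protein known to prefer UG-rich RNA. The longest repeat ran over 58 nt, and its start is shown with the repeat in capitals.
NEAT1 TG repeat, chr11:65444256-65444285, plus strand: cctcagacTGTGTGTGTGTGTGTGTGTGTG
The motif TGTGTG, searched on the transcript strand with overlapping matches counted, occurred 76 times in the long NEAT1 transcript, or 3.34 times per 1000 nt. Over the longest transcripts of 15794 tested genes it occurred 0.630 times per 1000 nt, and in MALAT1 it occurred 0.459 times per 1000 nt. It was present in 81.8% of 22 NEAT1 windows of 1000 nt and in 32.5% of 52544 such windows over all tested genes. The hexamers GACTCA and GACCCA, which the study examined as SRSF11 motifs, occurred 0.226 and 0.278 times per 1000 nt over all tested genes. They had 4 and 3 matches in NEAT1, or 0.176 and 0.132 per 1000 nt, both below the values over all tested genes. MALAT1 had 1 and 3 matches (0.115 and 0.345 per 1000 nt) and SRRM2 4 and 0 (0.428 and 0 per 1000 nt). SON had 2 and 2, SRRM1 and NONO 0 and 1, and TARDBP 1 and 0. The longest transcripts of SFPQ and PSPC1 had no match. These matches describe the letters of the transcripts and not binding in these cells.

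Of the 9 genes, 4 were called (44.4%), beside 24.6% of all tested genes. SFPQ, SON and NONO were higher and NEAT1 was lower in si-SRSF11. Only NEAT1 and SFPQ (22.2%) were called without si-NC replicate 1, without si-NC replicate 3 or without si-SRSF11 replicate 2, fits that called 17.3%, 18.1% and 19.0% of all tested genes. None of the 9 had an absolute log2 fold change over 1. The median log2 fold change was 0.10 over the 9 genes and 0.0015 over all tested genes. In 6 of the 9 the groups did not overlap (66.7%, beside 38.8% of all tested genes), with 4 higher and 2 lower. All 9 passed the filter on low counts in both groups, since the lowest count of any of them in any library was 835 and the highest 7397. By mean level they lay between percentiles 75.0 (TARDBP) and 98.2 (SRRM2) of all tested genes. The shares of all tested genes, here and beside the lists below, were not matched for level. The part of level in these shares was not tested.

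**Figure D1:**
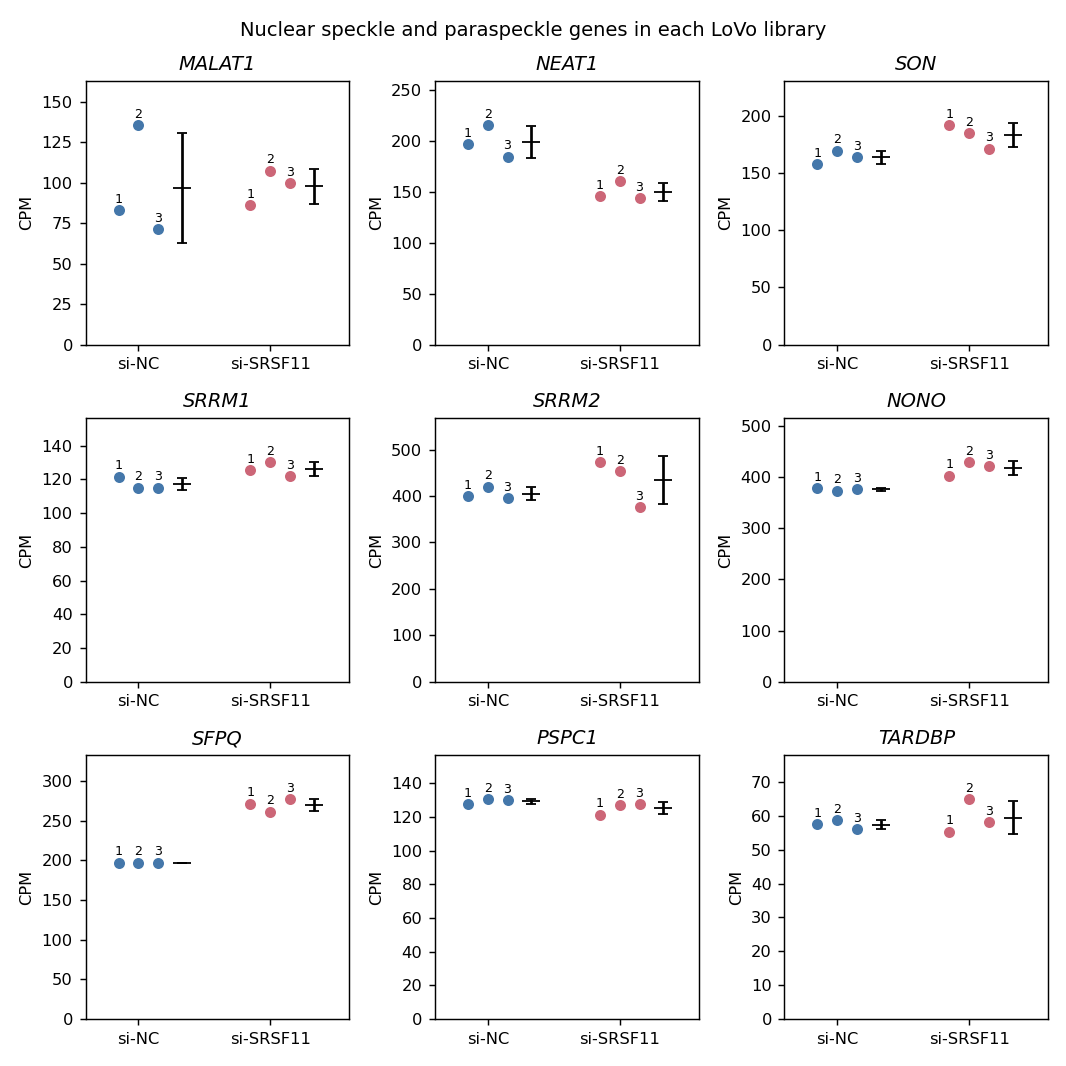
Levels of the 9 genes in each library, in CPM on axes that start at 0, with si-NC in blue and si-SRSF11 in red, the replicate number beside each point and the mean ± SD (n = 3) in black. NEAT1 lies lower in all 3 si-SRSF11 libraries and SFPQ higher, and the MALAT1 point of si-NC replicate 2 stands at 136 CPM.

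NEAT1, the RNA scaffold on which paraspeckles assemble, was the 1 gene of the 9 called lower. Its counts were 2853, 3279 and 2877 in si-NC and 2282, 2605 and 2344 in si-SRSF11. On the CPM scale its level was 197, 216 and 185 in si-NC and 146, 160 and 144 in si-SRSF11. All 3 si-SRSF11 libraries lay below the lowest si-NC library. The mean fell from 199 ± 15.7 to 150 ± 8.99 CPM (SD, n = 3 each, model fitted with edgeR), to 75.4% of the control level (log2 fold change -0.41, SE 0.057, adjusted p = 1.6e-05). NEAT1 was called lower whichever of the 6 libraries was dropped. In a bulk library, fewer cells with the RNA and less RNA per cell cannot be told apart.

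The deposited gene counts do not separate the NEAT1 isoforms. GENCODE 29 lists 8 NEAT1 transcripts, of which 1 covers nearly the whole locus and the other 7 are 512 to 3524 nt long and end by position 65426513. Reads near the start of the locus belong to either kind, and the count of a gene sums over both. Of the NEAT1 exon bases, 2.13% were shared with other genes, all of them small RNA entries that had 0 counts in every library. Reads in these shared bases may have been left out of the NEAT1 count.

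MALAT1, which gathers in speckles and is among the most abundant nuclear noncoding RNAs of many cells, had a level that differed more within si-NC than between the groups. Its counts were 1203, 2062 and 1114 in si-NC and 1350, 1748 and 1623 in si-SRSF11. Its level was 83.0, 136 and 71.5 CPM in si-NC and 86.3, 108 and 99.5 CPM in si-SRSF11. The high library was si-NC replicate 2, and the si-SRSF11 libraries all lay between it and the other si-NC libraries. The means were 96.7 ± 34.2 and 97.8 ± 10.7 CPM (SD, n = 3 each), with a log2 fold change of 0.02 (SE 0.14, edgeR adjusted p = 0.95). Over alternative fits the SE of MALAT1 ran from 0.055 to 0.30. Without si-NC replicate 2 the log2 fold change of MALAT1 was 0.34 (edgeR adjusted p = 0.0076), and without si-NC replicate 3 it was -0.16 (edgeR adjusted p = 0.38). The direction of the MALAT1 change therefore depended on which libraries entered the fit, and with library size alone as the scaling it was -0.02.

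MALAT1 in si-NC replicate 2 was 1.76-fold above the mean of the other si-NC libraries (0.82 on the log2 scale). Among 6395 tested genes with a mean of at least 500 counts, 2 others were as far from the other si-NC libraries in that library, RN7SL2 at 3.26 and COMMD6 at -0.92 on the log2 scale. RN7SL2 is a 7SL RNA, the RNA of the signal recognition particle, and like the mitochondrial rRNAs it was looked at here after the MALAT1 values were seen, since these RNAs do not carry an ordinary long poly(A) tail. RN7SL2 stood at 92.2, 989 and 116 CPM in si-NC and at 206, 711 and 346 CPM in si-SRSF11. MT-RNR1, the small mitochondrial rRNA, stood at 536, 754 and 553 CPM in si-NC and at 576, 663 and 681 CPM in si-SRSF11. In both RNAs, as in MALAT1, si-NC replicate 2 was the highest of the 6 libraries. MT-RNR2, the large mitochondrial rRNA, had a narrower range of 4306 to 4719 CPM over the 6 libraries. IFITM2 and EIF3C encode proteins and are named here after their values were seen. In si-NC replicate 2 they stood 0.56 and 0.53 above the other si-NC libraries on the log2 scale. MT-RNR1 stood 0.47 above the same libraries. RN7SL1, RN7SK, RMRP and RPPH1 were listed at 0 in every library, and near-identical 7SL copies can share reads, so the RN7SL2 value is uncertain as that of 1 gene. The part of RNA capture in the MALAT1 values was not tested.

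**Figure D2:**
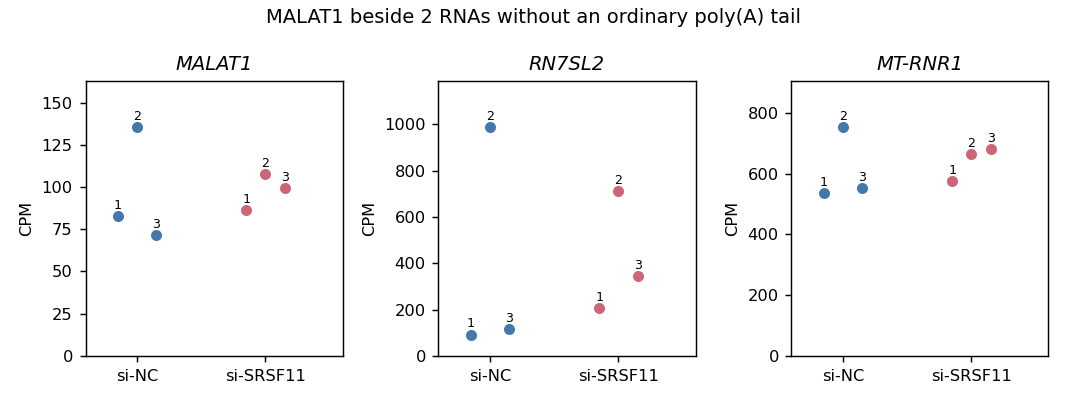
Levels of MALAT1, RN7SL2 and MT-RNR1 in CPM in each library, with si-NC in blue, si-SRSF11 in red and the replicate number beside each point, on axes that start at 0. In all 3 panels si-NC replicate 2 is the highest library, at 136, 989 and 754 CPM. MT-RNR2, which had a narrower range, is not shown.

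The ratio of NEAT1 to MALAT1 within a library does not depend on the scaling between libraries. NEAT1 had 2.37, 1.59 and 2.58 counts per MALAT1 count in si-NC and 1.69, 1.49 and 1.44 in si-SRSF11. The groups overlapped, because si-NC replicate 2 lay below si-SRSF11 replicate 1. The log2 ratio differed by -0.47 (exact permutation test, two-sided p = 0.20, 0.35 after adjustment over 7 ratios, smallest possible p 0.10 with 3 against 3). Both RNAs together took 0.0299% ± 0.0052 of all counts in si-NC and 0.0244% ± 0.0017 in si-SRSF11 (SD, n = 3 each, exact permutation test, two-sided p = 0.20).

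SFPQ, a splicing and transcription factor that binds NEAT1 and is required for paraspeckles, had the highest fold change of the 9 genes. It lies at chr1:35176378-35193148 on the minus strand. Its counts were 2856, 2994 and 3066 in si-NC and 4243, 4247 and 4514 in si-SRSF11. Its level was 197 CPM in each si-NC library and 271, 261 and 277 CPM in the si-SRSF11 libraries, so the groups were far apart. The mean rose from 197 ± 0.0874 to 270 ± 7.87 CPM (SD, n = 3 each, model fitted with edgeR), 1.37-fold (log2 fold change 0.45, SE 0.046, adjusted p = 2.3e-07). The si-NC libraries lay closer together than counting error alone gives, which is 1.87% at the lowest of these counts. SFPQ was called whichever of the 6 libraries was dropped.

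NONO, the partner of SFPQ in a heterodimer, was higher by a smaller amount. It lies at chrX:71283192-71301168 on the plus strand. Its counts were 5477, 5671 and 5845 in si-NC and 6295, 6967 and 6850 in si-SRSF11. The level was 378, 373 and 375 CPM in si-NC and 403, 429 and 420 CPM in si-SRSF11, with no overlap. The mean rose from 375 ± 2.27 to 417 ± 13.3 CPM (SD, n = 3 each, edgeR), 1.11-fold (log2 fold change 0.15, SE 0.045, adjusted p = 0.016). The NONO call was lost in 4 of the 6 fits without 1 library, namely without any 1 of the si-NC libraries or without si-SRSF11 replicate 2, where the log2 fold change was 0.13 to 0.16 and the edgeR adjusted p 0.059 to 0.070.

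PSPC1, the third protein of that family, lies at chr13:19674752-19783019 on the minus strand and was not called. It had 1851, 1984 and 2026 counts in si-NC and 1898, 2066 and 2079 in si-SRSF11. Its level was 128, 131 and 130 CPM in si-NC and 121, 127 and 127 CPM in si-SRSF11. The si-SRSF11 libraries lay slightly below all si-NC libraries, and the log2 fold change of -0.05 (SE 0.047, edgeR adjusted p = 0.51) was not past the threshold. The 3 proteins thus differed in their ratios within a library. SFPQ had 1.51 to 1.54 counts per PSPC1 count in si-NC and 2.06 to 2.24 in si-SRSF11, a log2 difference of 0.50. The log2 ratio of SFPQ to NONO was 0.30 higher in si-SRSF11, and that of NONO to PSPC1 was 0.20 higher. None of these 3 ratios overlapped between the groups, and each had the smallest p the exact permutation test allows, 0.10, or 0.23 after adjustment over 7 ratios.

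TARDBP, which encodes TDP-43, is found in paraspeckles as well as in the rest of the nucleus. The gene lies at chr1:11012344-11026420 on the plus strand. It had 835, 892 and 873 counts in si-NC and 866, 1055 and 950 in si-SRSF11. Its level was 57.6, 58.7 and 56.0 CPM in si-NC and 55.4, 64.9 and 58.3 CPM in si-SRSF11. The groups overlapped, with si-SRSF11 replicate 1 the lowest and replicate 2 the highest of all libraries. The log2 fold change was 0.05 (SE 0.063, edgeR adjusted p = 0.59), and it was -0.02 without si-SRSF11 replicate 2. TARDBP shared 28.99% of its exon bases with AL109811.4, a gene on the same strand that was listed at 0 in every library. Reads in the shared bases may have been left out of the TARDBP count, and its level is uncertain for that reason.

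SON, a scaffold protein of speckles that binds RNA and DNA, was the 1 speckle gene called. It lies at chr21:33542618-33577481 on the plus strand. Its counts were 2290, 2579 and 2553 in si-NC and 3006, 3011 and 2798 in si-SRSF11. The level was 158, 170 and 164 CPM in si-NC and 192, 185 and 172 CPM in si-SRSF11, and si-SRSF11 replicate 3 stood nearest to the si-NC libraries. The mean rose from 164 ± 5.89 to 183 ± 10.5 CPM (SD, n = 3 each, edgeR), 1.12-fold (log2 fold change 0.16, SE 0.051, adjusted p = 0.026). The SON call was lost with library size alone (0.13, edgeR adjusted p = 0.086) and in 4 of the 6 fits without 1 library. Those were the fits without si-NC replicate 1 or 3 (0.13 and 0.16) and without si-SRSF11 replicate 1 or 2 (0.12 and 0.15), with edgeR adjusted p from 0.073 to 0.14.

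SRRM2, the other speckle scaffold and a component of the spliceosome, lies at chr16:2752329-2772538 on the plus strand. It had 5797, 6387 and 6163 counts in si-NC and 7397, 7385 and 6141 in si-SRSF11. Its level was 400, 420 and 396 CPM in si-NC and 473, 454 and 377 CPM in si-SRSF11. In si-SRSF11, replicates 1 and 2 lay above every si-NC library and replicate 3 lay below every one. The log2 fold change was 0.10 (SE 0.062, edgeR adjusted p = 0.25) over all libraries, and 0.19 (edgeR adjusted p = 0.0032) without si-SRSF11 replicate 3.

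SRRM1, a coactivator of splicing that bridges factors bound to the pre-mRNA, lies at chr1:24631716-24673267 on the plus strand. It had 1764, 1748 and 1792 counts in si-NC and 1965, 2116 and 1990 in si-SRSF11. Its level was 122, 115 and 115 CPM in si-NC and 126, 130 and 122 CPM in si-SRSF11. The si-SRSF11 libraries lay just above the si-NC libraries, with means of 117 ± 3.82 and 126 ± 4.09 CPM (SD, n = 3 each). The log2 fold change was 0.10 (SE 0.048, edgeR adjusted p = 0.12). The ratios of SON, SRRM1 and SRRM2 to each other overlapped between the groups, with log2 differences from -0.01 to 0.06.

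**Figure D3:**
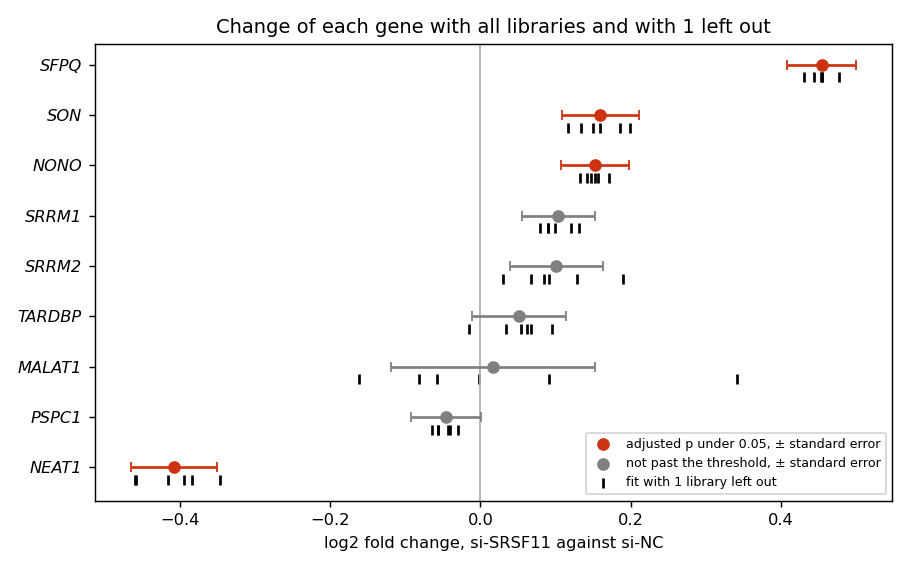
Log2 fold change of each of the 9 genes in si-SRSF11 against si-NC on the x axis, with bars of 1 standard error, in red where the edgeR adjusted p was under 0.05, and black ticks for the 6 fits that each left out 1 library. The ticks of NEAT1 stay between -0.46 and -0.35 and those of SFPQ between 0.43 and 0.48, while those of MALAT1 run from -0.16 to 0.34.

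The exon annotation limited a few of these counts, and the counting was not stated to use strand. SON shared 4.93% of its exon bases with other genes, chiefly GART and DONSON on the opposite strand. GART, an enzyme of purine synthesis, fell from 266 ± 6.43 to 234 ± 4.76 CPM (SD, n = 3 each, edgeR, log2 fold change -0.19, adjusted p = 0.0045), and DONSON, a DNA replication factor, fell from 26.4 ± 1.23 to 21.8 ± 0.879 CPM (SD, n = 3 each, edgeR, log2 fold change -0.27, adjusted p = 0.016). SRRM2 shared 2.63% of its exon bases with SRRM2-AS1 and ELOB on the opposite strand. SRRM2-AS1 was lower in si-SRSF11 (log2 fold change -0.53, edgeR adjusted p = 0.0042), and ELOB had a log2 fold change of -0.05 (edgeR adjusted p = 0.63). Without strand, reads of such overlapping bases cannot be told apart. MALAT1 shared 6.21% of its exon bases and PSPC1 0.747%, with genes that had at most 13 counts in any library, and SRRM1, NONO and SFPQ shared none. As with TARDBP, reads in such shared bases may have been left out of the counts of MALAT1 and PSPC1. Of 100-nt windows along the longest transcript, those found also in another gene's transcript made up 26% in TARDBP, 9.69% in SRRM1, 6.49% in PSPC1 and 2.56% in NONO. The pseudogenes NONOP2 and PSPC1P1 had at most 14 and 4 counts in any library.

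Per length, the levels of the 9 genes differed widely. In CPM per 1000 exonic bases, NONO was highest in si-NC at 70.9 ± 0.43, followed by SRRM2 at 30.5 ± 0.99, PSPC1 at 26.9 ± 0.32 and SFPQ at 26.5 ± 0.012 (SD, n = 3 each). The libraries of PSPC1 and SFPQ overlapped. SRRM1 at 14.4 ± 0.47 and SON at 12.4 ± 0.45 came next. MALAT1 at 10.95 ± 3.9 overlapped with SON above it and with TARDBP (9.46 ± 0.22) below it, and TARDBP overlapped with NEAT1 (8.74 ± 0.69). In si-SRSF11 SFPQ stood second at 36.3 ± 1.1, in front of SRRM2 at 32.8 ± 3.9 with overlapping libraries, and PSPC1 followed at 26.02 ± 0.71. NEAT1 was again last, at 6.59 ± 0.39, and there no longer overlapped with TARDBP at 9.80 ± 0.81. The values per length for NEAT1 divide by the whole locus of 22767 exonic bases, whichever of its transcripts the reads came from. For every gene the divisor merges the exons of all its transcripts. It was 7426 bases for SFPQ, 4817 for PSPC1 and 13266 for SRRM2, whose longest transcripts have 3747, 2407 and 9353 nt. The order between genes therefore holds for this divisor only.

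**Figure D4:**
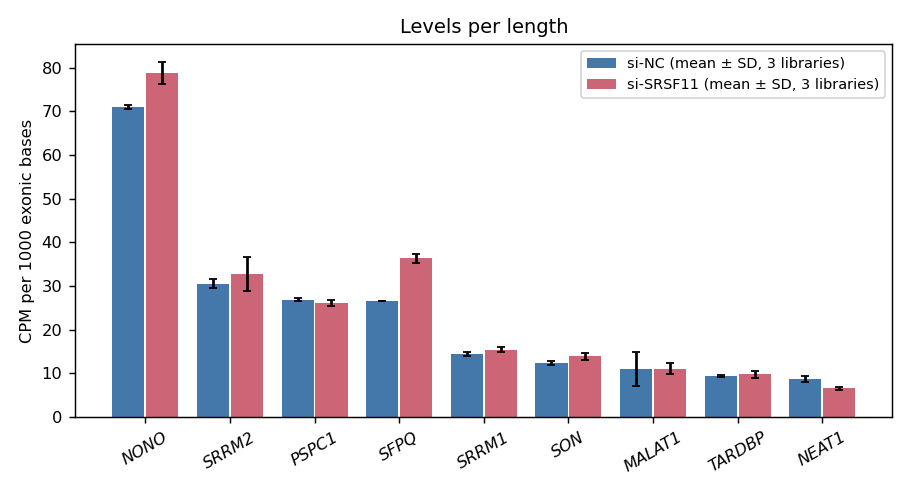
Mean level of the 9 genes in CPM per 1000 exonic bases, with si-NC in blue, si-SRSF11 in red and bars of 1 SD over 3 libraries, ordered by the si-NC level. SFPQ stands level with PSPC1 in si-NC (26.5 and 26.9) and above it in si-SRSF11 (36.3 and 26.02).

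Among 31 other paraspeckle proteins, 30 were tested, of which 7 rose and 4 fell (36.7% called, beside 24.6% of all tested genes), with a median log2 fold change of 0.04. CPSF6, a subunit of the cleavage factor that selects poly(A) sites, rose from 42.4 ± 2.99 to 68.9 ± 0.962 CPM (SD, n = 3 each, edgeR, log2 fold change 0.70, adjusted p = 2.9e-08). Its partner NUDT21, which binds the RNA in the same complex, rose from 157 ± 2.65 to 178 ± 4.14 CPM (SD, n = 3 each, edgeR, log2 fold change 0.19, adjusted p = 0.0051). The cleavage factor is known to favour the short polyadenylated NEAT1 transcript, and HNRNPK is known to oppose it. HNRNPK, named here for that role after its values were seen, stood at 663 ± 13.0 CPM in si-NC and 678 ± 7.24 CPM in si-SRSF11 (SD, n = 3 each, log2 fold change 0.03). Gene counts do not separate the NEAT1 transcripts, so a part of these proteins in them was not tested. The 4 that fell, named here for their direction, were HNRNPH3, CIRBP, AKAP8L and DAZAP1. Their log2 fold changes were -0.20, -0.19, -0.17 and -0.14. TAF15, an RNA-binding protein, rose 0.48 on the log2 scale (SE 0.051, edgeR adjusted p = 3.9e-07), and RBMX, a splicing regulator, rose 0.36 (SE 0.046, edgeR adjusted p = 4.7e-06). For MATR3, the table holds overlapping entries under the same name, and its low count is uncertain. The paraspeckle list had 6 calls (20.0%) without si-NC replicate 2 and 6 without si-NC replicate 3, where 19.0% and 18.1% of all tested genes were called, so in those fits its share was near that of all genes.

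Among 40 other nuclear speckle proteins, all were tested, 10 rose and 6 fell (40.0% called, beside 24.6% of all tested genes), with a median log2 fold change of 0.06. BCLAF1, a relative of THRAP3 that takes part in mRNA processing, rose from 41.8 ± 3.21 to 60.3 ± 2.71 CPM (SD, n = 3 each, edgeR, log2 fold change 0.53, adjusted p = 3.6e-06). ALYREF, an adaptor of mRNA export, rose 0.45 on the log2 scale (SE 0.066, edgeR adjusted p = 3.0e-05). DDX39B, the helicase that works with ALYREF in mRNA export, moved the other way, from 140 ± 5.78 to 108 ± 0.824 CPM (SD, n = 3 each, edgeR, log2 fold change -0.38, adjusted p = 5.0e-06). CLK1, a kinase that phosphorylates SR proteins, fell from 45.7 ± 1.195 to 32.7 ± 1.76 CPM (SD, n = 3 each, edgeR, log2 fold change -0.48, adjusted p = 1.4e-05). CDK11A and CDK11B of this list are near-identical copies and share reads, so their split is uncertain.

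A list called scaffolds of other nuclear bodies covered Cajal bodies, PML bodies, histone locus bodies and nucleoli. Some of its genes, such as PSME3 and ICE1, encode regulators or subunits of complexes and not scaffolds. The list gave 7 higher and 0 lower of 18 tested (38.9% called, beside 24.6% of all tested genes, 13.2% higher and 11.4% lower). Its median log2 fold change was 0.16. NCL, an abundant protein of nucleoli, rose from 524 ± 8.57 to 679 ± 23.1 CPM (SD, n = 3 each, edgeR, log2 fold change 0.37, adjusted p = 2.0e-06). NPM1, also of nucleoli, rose 0.15 (SE 0.042, edgeR adjusted p = 0.011), PSME3, a regulator of the nuclear proteasome, rose 0.28 (SE 0.046, edgeR adjusted p = 9.4e-05), and ICE1, a subunit of a complex that acts in the transcription of small nuclear RNAs, rose 0.30 (SE 0.076, edgeR adjusted p = 0.0056). SMN1 is among the 7 by a single library, with 241, 244 and 994 counts in si-SRSF11, and it shares nearly all its sequence with SMN2. The list had 4 calls by DESeq2, 4 (22.2%) without si-NC replicate 1 and 4 without si-NC replicate 2, where 17.3% and 19.0% of all tested genes were called.

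RNase P, ELAC2 and METTL16 act at the 3′ ends of MALAT1 and of the long NEAT1 transcript, and of 13 tested genes of this machinery 3 rose and 0 fell (23.1% called, beside 24.6% of all tested genes), with a median log2 fold change of 0.14. POP1, the largest protein of RNase P, rose from 19.6 ± 0.465 to 32.5 ± 1.10 CPM (SD, n = 3 each, edgeR, log2 fold change 0.73, adjusted p = 4.9e-07). METTL16, which binds the triple helix of MALAT1, rose 0.34 on the log2 scale (SE 0.063, edgeR adjusted p = 0.00038). ELAC2, which trims the tRNA-like RNA cut from MALAT1, rose 0.22 (SE 0.050, edgeR adjusted p = 0.0027). RPPH1, the RNA of RNase P, and RMRP, the RNA of the related RNase MRP, were listed at 0 and were not tested. The list had 5 calls (38.5%) without si-SRSF11 replicate 1, where 22.6% of all tested genes were called. With library size alone in place of TMM it had 4 calls, 3 higher and 1 lower.

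Other long noncoding RNAs, most of them nuclear, were taken beside NEAT1. Of 9 names 8 were tested, in 9 table rows because LINC-PINT has a pair of entries, and 1 row fell and 0 rose (11.1% called, below the 24.6% of all tested genes), with a median log2 fold change of -0.03. TUG1 fell from 82.7 ± 5.26 to 66.5 ± 6.09 CPM (SD, n = 3 each, edgeR, log2 fold change -0.31, adjusted p = 0.0010). Of 12 tested genes beside NEAT1 and MALAT1 on chromosome 11, 2 fell and 0 rose (16.7% called, also below the 24.6% of all tested genes), with a median log2 fold change of -0.02. They were LTBP3, which binds latent TGF-beta (85.1 ± 1.54 to 71.0 ± 5.23 CPM, SD, n = 3 each, edgeR log2 fold change -0.26, adjusted p = 0.0018), and SSSCA1 (log2 fold change -0.21, edgeR adjusted p = 0.028). DESeq2 called 1 of the 12, and so did each fit without si-NC replicate 1 or 3 or without si-SRSF11 replicate 1 or 2.

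**Figure D5:**
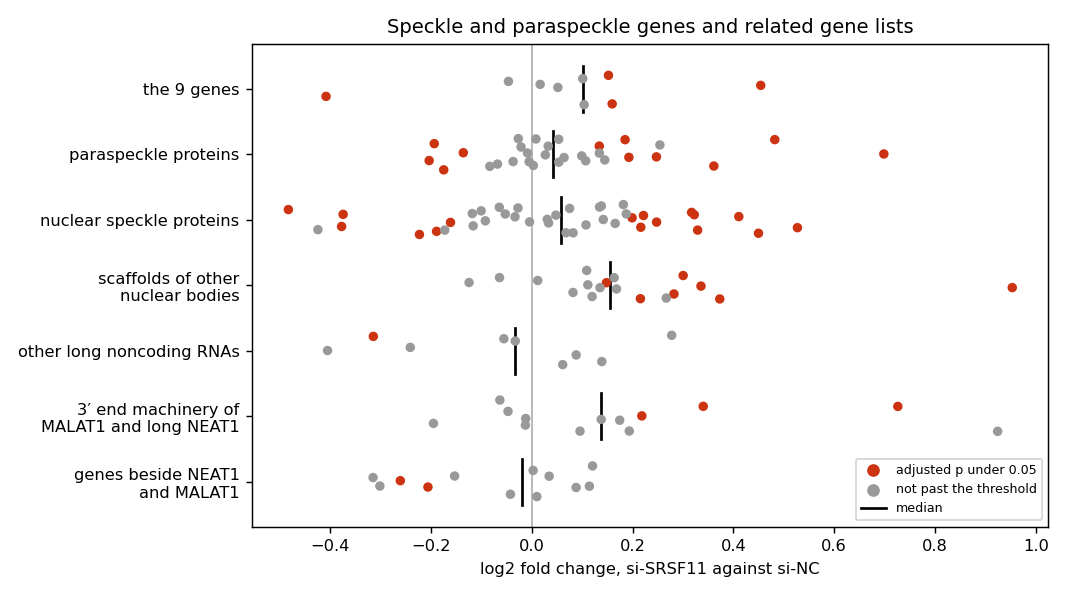
Log2 fold change of each tested gene in si-SRSF11 against si-NC on the x axis, for the 9 genes and the 6 related lists, in red where the edgeR adjusted p was under 0.05, with the median of each list as a black line. Points are spread vertically within a list only to separate them. The farthest red point of the list called scaffolds of other nuclear bodies is SMN1 at 0.95, which rests on 1 library.

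The genes most like NEAT1 over the 6 libraries were DCAF16, TLCD2 and CLCN5, among 6400 tested genes with a mean log2 CPM of at least 5. The root mean square difference of their centred log2 CPM from that of NEAT1 was 0.045, 0.049 and 0.049, while the NEAT1 profile itself had a root mean square of 0.22. DCAF16 had 63.4, 64.5 and 56.4 CPM in si-NC and 44.8, 50.2 and 42.1 CPM in si-SRSF11. The genes most like MALAT1 were MT-RNR1, NOL9 and FBXL20, at 0.15, 0.18 and 0.18, where MALAT1 itself had 0.30. These are descriptions over 6 libraries that share their group means and depth.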

How the data were processed

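RNA from LoVo cells was selected on poly-T beads, and both ends of the fragments were read over 150 bp. The file deposited by the authors holds raw read counts per gene for 6 libraries, without normalization or a filter. The submitters' processing notes name the build hg38. All 58735 gene identifiers and coordinates matched GENCODE 29. The aligner, counting program, strand setting and tool for differential expression were not given in the sources used here.

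Libraries were grouped by their labels. Genes that reached 10 counts in 3 or more libraries were scaled by TMM and tested with glmQLFit and glmQLFTest of edgeR (version 4.0.16, R version 4.3.3) on condition, with Benjamini-Hochberg adjustment over all 15801 genes. The standard error was the log2 fold change over the root of F, and CPM used the library totals of the tested genes. For the cell type markers, CPM used the totals of all listed genes without TMM. Single ratios and shares were compared by exact two-sided permutation tests. On simulated counts the fit called 149 of 198 genes given a change, and it also called 18 of 15363 genes given none. Transcript sequences and overlaps were read from GENCODE 29. Alternatives were DESeq2 (version 1.42.0), other scalings, filters and library sizes, robust dispersion, a replicate block, and leaving out each library.

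The 9 genes, the 6 lists and the tests were chosen with earlier results of these data known. Named genes are SRSF11, the 9 genes, at most 4 genes per list with the smallest adjusted p under 0.05, genes overlapping a member's exons or its pseudogenes, and the 3 genes most like NEAT1 or MALAT1. Names outside this rule are marked, or are shown for their transcript motif, for being listed at 0, for shared reads or for 1 library that decides a call.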

Additional observations from a re-analysis of the deposited data

How the results depend on the processing

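NEAT1 and SFPQ kept their direction and their call in all 16 alternatives, with log2 fold changes of -0.46 to -0.35 and 0.42 to 0.48. With library size alone in place of TMM, which shifted the median of all genes by -0.03 on the log2 scale, MALAT1 was -0.020 and SON lost its call at 0.13. DESeq2 called 4 genes of the list called scaffolds of other nuclear bodies, 1 gene beside NEAT1 and MALAT1, and 3060 genes in all. Leaving out 1 library at a time gave 2733 to 3877 genes called in all and 2 to 5 of the 9 genes, with 2 (NEAT1 and SFPQ) without si-NC replicate 1, si-NC replicate 3 or si-SRSF11 replicate 2, a share of 22.2% beside 17.3%, 18.1% and 19.0% of all tested genes. The same fits gave log2 fold changes of -0.16 to 0.34 for MALAT1, where -0.08, -0.16, -0.06 and -0.0017 were below 0, 0.12 to 0.20 for SON, 0.030 to 0.19 for SRRM2, 0.13 to 0.17 for NONO and -0.015 to 0.095 for TARDBP. They also gave 6 to 12 paraspeckle proteins, 14 to 17 nuclear speckle proteins, 4 to 8 genes of the list of other bodies, 3 to 5 genes of the 3′ end machinery and 1 to 2 genes beside NEAT1 and MALAT1. The cause of these changes was not tested, beyond the smaller number of samples in the fits without 1 library. Same-numbered libraries of both groups had deviations that correlated at 0.015, 0.036 and 0.040 across 15801 genes, and each library correlated best with its own number. The study speaks of 3 pairs of samples, and neither it nor the labels say that the number marks a pair. With the replicate block 4 of the 9 genes were called, as without it, and 4036 genes in all. With 3 libraries per group the standard errors of the 9 genes in the main fit were 0.045 to 0.14 on the log2 scale. That of MALAT1, 0.14 in the main fit, was 0.055 with no filter on low counts, 0.29 with robust dispersion and 0.30 with DESeq2. Gene counts did not resolve NEAT1 isoforms.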
